A study of Mus musculus with 18 samples.

Results

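Skeletal muscle transcripts were followed through 18 libraries of bulk RNA from subcutaneous mouse tumours. The set held 34 genes of adult skeletal muscle, chosen by name, out of 55291 genes in the deposited table, and all 34 were found there. The values were TPM (transcript abundance scaled for length and to the same total in every library). The set shows how much muscle RNA each library held, which fibre type that RNA resembled, and whether it differed between treated and untreated tumours.

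The tumours grew under the skin of BALB/cJ or C57BL/6J mice, from 1 of 3 cell lines. CT26 is a colon carcinoma line from BALB/c mice, CT26-NY-ESO-1 (CT26NYESO1 below) carries in its name the tumour antigen NY-ESO-1 of humans, and LL/2 (LL2 below) is the Lewis lung carcinoma line from C57BL/6 mice. In the OK432 groups the tumours were injected with OK-432, a killed preparation of Streptococcus pyogenes, for 24 hours. The Ctrl groups had no OK-432. Whether they had a vehicle, how old the mice were and which strain bore which line is not spelled out in the labels. All tumours were taken on day 14. The 6 groups were CT26 OK432, CT26 Ctrl, CT26NYESO1 OK432, CT26NYESO1 Ctrl, LL2 OK432 and LL2 Ctrl, with 3 libraries each. Separate mice are not named for the 3 libraries of a group, and the p-values therefore rest on a spread between libraries that may be technical. The labels also do not say how the tumours were dissected from the tissue around them, and the labelled tissue is tumour, so no library was meant to be a muscle sample.

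Skeletal muscle fibres are long multinucleate cells filled with sarcomeres, in which myosin of the thick filament pulls on actin of the thin filament. Calcium released from the sarcoplasmic reticulum binds troponin and switches the thin filament on. Adult fibres are sorted by the myosin heavy chain gene that they use: Myh7 in slow fibres, Myh2 in fast oxidative (IIa) fibres, Myh1 in fast intermediate (IIx) fibres and Myh4 in fast glycolytic (IIb) fibres. A thin muscle sheet, the panniculus carnosus, lies in the skin of the mouse, in the layer where subcutaneous tumours grow.

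The stretch in front of 4 of the genes is printed because these genes represent the patterns described below: Acta1 is the actin of skeletal muscle, Myh1 was the leading myosin, Ckm is the classical muscle enzyme gene, and Eno3 varied unlike the others. Each line holds the 250 bases before the RefSeq gene start on the GRCm38.p6 build, written 5′ to 3′ on the strand of the gene. Capitals mark matches to an E-box (CANNTG, the letters bound by MyoD family factors), a CArG box (the element of serum response factor) or a MEF2 site (the element of MEF2 factors), searched on both strands.
Acta1, chr8:123894776-123895025 (- strand): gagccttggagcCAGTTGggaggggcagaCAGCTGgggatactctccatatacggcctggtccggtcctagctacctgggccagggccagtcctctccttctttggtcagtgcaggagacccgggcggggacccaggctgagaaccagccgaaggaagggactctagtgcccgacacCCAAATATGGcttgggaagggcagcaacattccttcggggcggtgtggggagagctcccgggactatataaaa
Myh1, chr11:67199852-67200101 (+ strand): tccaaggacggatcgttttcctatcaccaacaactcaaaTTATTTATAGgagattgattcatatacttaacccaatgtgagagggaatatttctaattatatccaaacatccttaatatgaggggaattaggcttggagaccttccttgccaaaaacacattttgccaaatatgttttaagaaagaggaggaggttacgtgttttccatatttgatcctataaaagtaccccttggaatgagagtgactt
Ckm, chr7:19410844-19411093 (+ strand): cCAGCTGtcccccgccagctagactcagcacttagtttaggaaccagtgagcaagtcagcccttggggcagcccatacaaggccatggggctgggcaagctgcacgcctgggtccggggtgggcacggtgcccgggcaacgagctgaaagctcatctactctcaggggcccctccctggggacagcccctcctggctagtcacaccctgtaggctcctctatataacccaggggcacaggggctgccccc
Eno3, chr11:70656926-70657175 (+ strand): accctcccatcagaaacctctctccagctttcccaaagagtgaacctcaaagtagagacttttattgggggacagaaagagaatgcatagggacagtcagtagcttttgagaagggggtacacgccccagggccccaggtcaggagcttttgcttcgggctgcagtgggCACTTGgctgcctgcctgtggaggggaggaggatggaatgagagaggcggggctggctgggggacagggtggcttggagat

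Acta1 held 2 E-boxes, CAGTTG and CAGCTG, and 1 CArG box, CCAAATATGG, which lay 73 to 64 bases before the start. Myh1 held 1 MEF2 site, TTATTTATAG, and no match to the other motifs. Ckm and Eno3 held 1 E-box each, CAGCTG in Ckm and CACTTG in Eno3. RefSeq windows were found for 23 of the 34 genes, 19 of which held an E-box, 2 a CArG box and 5 a MEF2 site. Of 32851 windows of the same length over all genes, 66.2% held an E-box, 1.47% a CArG box and 2.92% a MEF2 site. Such matches describe letters and do not show that a factor was bound.

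RNA of the 34 genes was a trace of every library and differed widely between libraries of the same group in most groups. In CT26 OK432 replicate 3, 15 of the 34 were listed at 0, Acta1 and Myh1 among them. The 34 genes together took between 0.0042% and 0.06% of all TPM. In the libraries poorest in muscle most of that sum was Eno3, the muscle form of the glycolytic enzyme enolase, which is treated separately below. Without it, the 33 other genes summed to 225, 37.1 and 14.9 TPM in CT26 OK432 replicates 1, 2 and 3, against 13.0, 14.9 and 14.7 TPM in CT26 Ctrl. In CT26NYESO1 the sums were 28.7, 186 and 18.9 TPM with OK432 and 168, 17.5 and 209 TPM in Ctrl. In LL2 they were 37.6, 150 and 570 TPM with OK432 and 119, 168 and 249 TPM in Ctrl. Without Eno3, the treated libraries of each tumour type spread over a wide range and overlapped the untreated ones, in CT26 only through OK432 replicate 3. With Eno3 included, the groups did not overlap in CT26. All 34 genes then summed to 258, 71.5 and 52.3 TPM in CT26 OK432 and to 42.0, 43.5 and 43.8 TPM in CT26 Ctrl. The 3 CT26 Ctrl libraries were all low and close to each other, whereas both CT26NYESO1 groups held at least 1 low and 1 high library.

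**Figure D1:**
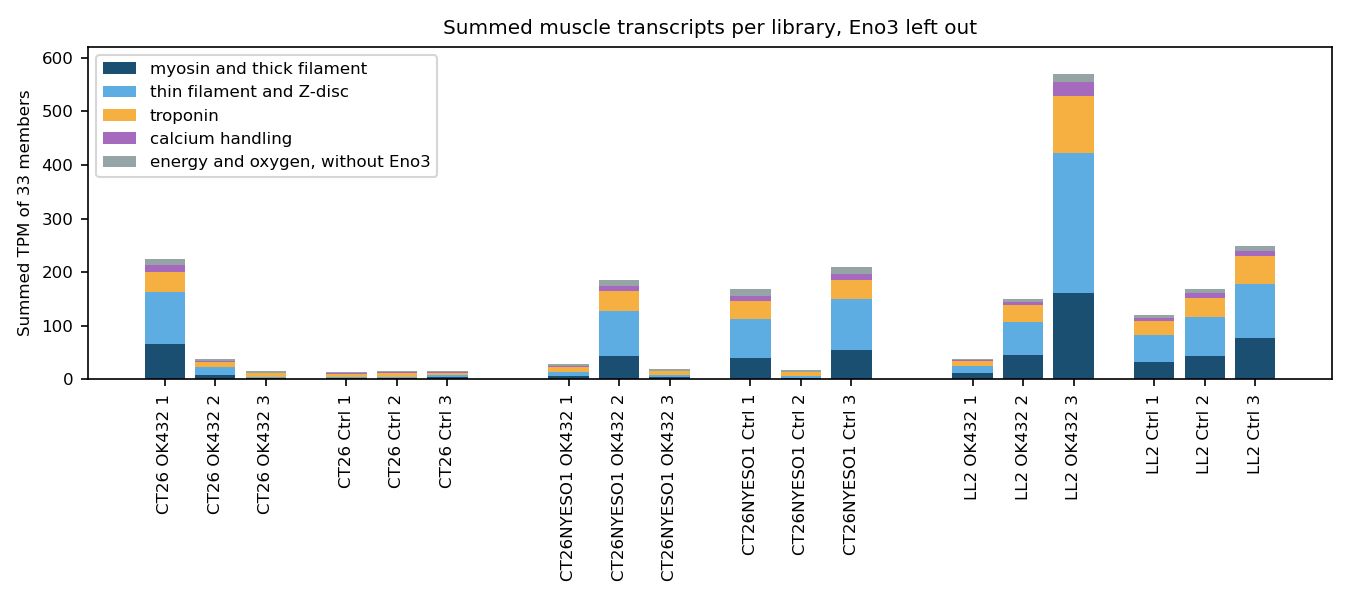
Summed TPM of 33 skeletal muscle genes (Eno3 left out) in each of the 18 libraries, stacked by role, with OK432 left of Ctrl within each tumour type. LL2 OK432 replicate 3 reached 570 TPM, whereas the 3 CT26 Ctrl libraries lay between 13.0 and 14.9 TPM.

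One library stood apart: LL2 OK432 replicate 3 had the highest value of all 18 for 27 of the 34 genes, where 6.41% of the 16816 genes tested had their highest value in it. Within CT26, OK432 replicate 1 was the highest of 6 libraries for 31 of the 34 genes, against 16.1% of all tested genes. Within CT26NYESO1, Ctrl replicate 3 was the highest for 21 of the 34 genes, against 13.5% of all tested genes. OK432 replicate 2 was the highest for 7 and Ctrl replicate 1 for 5, against 15.7% and 20.6% of all tested genes. In bulk tissue, more muscle cells and more muscle RNA per cell cannot be told apart.

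The thin filament and Z-disc genes were mostly highest in these libraries. Acta1, skeletal muscle alpha-actin, stood at 75.9, 10.6 and 0 TPM in CT26 OK432 and at 0.26, 0.14 and 0.62 TPM in CT26 Ctrl. It stood at 5.65, 71.5 and 0.66 TPM in CT26NYESO1 OK432 and at 59.3, 0.14 and 77.2 TPM in CT26NYESO1 Ctrl. In LL2 it stood at 10.2, 51.7 and 208 TPM with OK432 and at 41.2, 61.5 and 85.0 TPM in Ctrl. Treated and untreated libraries overlapped in each tumour type, and the highest and the lowest Acta1 values of the series were both from treated tumours. Xirp2, which binds actin at the ends of myofibrils, stood at 6.27, 0.42 and 0 TPM in CT26 OK432 and was listed at 0 in 2 of the 3 CT26 Ctrl libraries, with 0.0389 TPM in the other. It stood at 0.24, 1.68 and 0.0227 TPM in CT26NYESO1 OK432 and at 2.26, 0 and 3.25 TPM in Ctrl, and at 0.24, 2.27 and 17.7 TPM in LL2 OK432 and 2.88, 1.36 and 4.68 TPM in Ctrl. Actn2 and Actn3, the alpha-actinins that anchor thin filaments at the Z-disc, reached 11.2 and 5.13 TPM, and Tcap (telethonin, which caps titin) reached 5.51 TPM, all in LL2 OK432 replicate 3. Neb (nebulin, the thin filament ruler), Ttn (titin, the elastic scaffold of the sarcomere), Myot (myotilin), Smpx and Myoz1 stayed below 4 TPM in all libraries. Myoz1, calsarcin-2 of the fast fibre Z-disc, varied least among these 10 genes in its highest over its lowest value, between 0.52 and 2.18 TPM.

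Myosin and its partners repeated the pattern. Mylpf, the regulatory light chain of fast fibres, stood at 31.3, 5.49 and 2.17 TPM in CT26 OK432 and at 2.78, 2.43 and 4.62 TPM in CT26 Ctrl. It stood at 3.75, 18 and 3.28 TPM in CT26NYESO1 OK432 and at 19.1, 3.29 and 21.7 TPM in Ctrl, and at 10.3, 24.3 and 57.0 TPM in LL2 OK432 and 14.7, 20.9 and 32.4 TPM in Ctrl. Mylpf was at least 2.17 TPM in every library, whereas Acta1 was under 1 TPM in 6 libraries. Myl1, the alkali light chain of fast fibres, stood at 11.7, 0.56 and 0 TPM in CT26 OK432 and at 0, 0.11 and 0 TPM in CT26 Ctrl. It stood at 0.55, 9.34 and 0.53 TPM in CT26NYESO1 OK432 and at 6.55, 0.0506 and 7.23 TPM in Ctrl, and at 0.80, 7.07 and 23.8 TPM in LL2 OK432 and 5.13, 7.44 and 15.6 TPM in Ctrl. Mybpc2, the fast form of myosin binding protein C, ranged from 0 to 5.47 TPM with its maximum in the same LL2 library.

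Among the troponin genes, Tnnt3 and Tnnc2 were low where Acta1 was low, whereas Tnni2 and Tnnc1 were not always so. Tnnt3, the fast subunit that binds tropomyosin, stood at 17.1, 2.97 and 0.84 TPM in CT26 OK432 and at 0.50, 0.73 and 1.20 TPM in CT26 Ctrl. It stood at 1.52, 13.6 and 0.50 TPM in CT26NYESO1 OK432 and at 12.9, 0.76 and 13.3 TPM in Ctrl, and at 4.79, 12.9 and 57.6 TPM in LL2 OK432 and 13.2, 17.5 and 24.9 TPM in Ctrl. The 6 libraries lowest in Tnnt3 were the 6 lowest in Acta1. Tnnc2, the fast calcium-binding subunit, stood at 9.62, 0.51 and 0 TPM in CT26 OK432 and at 0.0807, 0 and 0.38 TPM in CT26 Ctrl. It stood at 0.34, 11.7 and 0.0503 TPM in CT26NYESO1 OK432 and at 8.89, 0.0135 and 12.1 TPM in Ctrl, and at 0.25, 8.05 and 27.3 TPM in LL2 OK432 and 5.35, 8.75 and 15.6 TPM in Ctrl. Tnni2, the fast inhibitory subunit, was listed at 0 in no library. Its values were 8.53, 3.91 and 4.19 TPM in CT26 OK432, 2.98, 3.41 and 0.90 TPM in CT26 Ctrl, 3.98, 9.64 and 5.59 TPM in CT26NYESO1 OK432 and 9.77, 5.37 and 7.77 TPM in CT26NYESO1 Ctrl. In LL2 Tnni2 stood at 1.42, 6.73 and 19.2 TPM with OK432 and at 4.56, 5.65 and 8.20 TPM in Ctrl. CT26NYESO1 Ctrl replicate 2, with little Acta1, held more Tnni2 than LL2 Ctrl replicate 1, with much. Tnnc1, the calcium-binding subunit of slow and cardiac muscle, stood at 2.57, 2.03 and 3.18 TPM in CT26 OK432 and 1.99, 3.17 and 2.06 TPM in CT26 Ctrl. It stood at 2.84, 2.48 and 1.86 TPM in CT26NYESO1 OK432, 1.54, 1.38 and 2.48 TPM in CT26NYESO1 Ctrl, 2.65, 2.65 and 2.04 TPM in LL2 OK432 and 1.6, 2.90 and 2.78 TPM in LL2 Ctrl. In CT26 OK432 replicate 3, where Acta1, Myh1 and Tnnc2 were listed at 0, Tnnc1 was at its highest of the series.

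**Figure D2:**
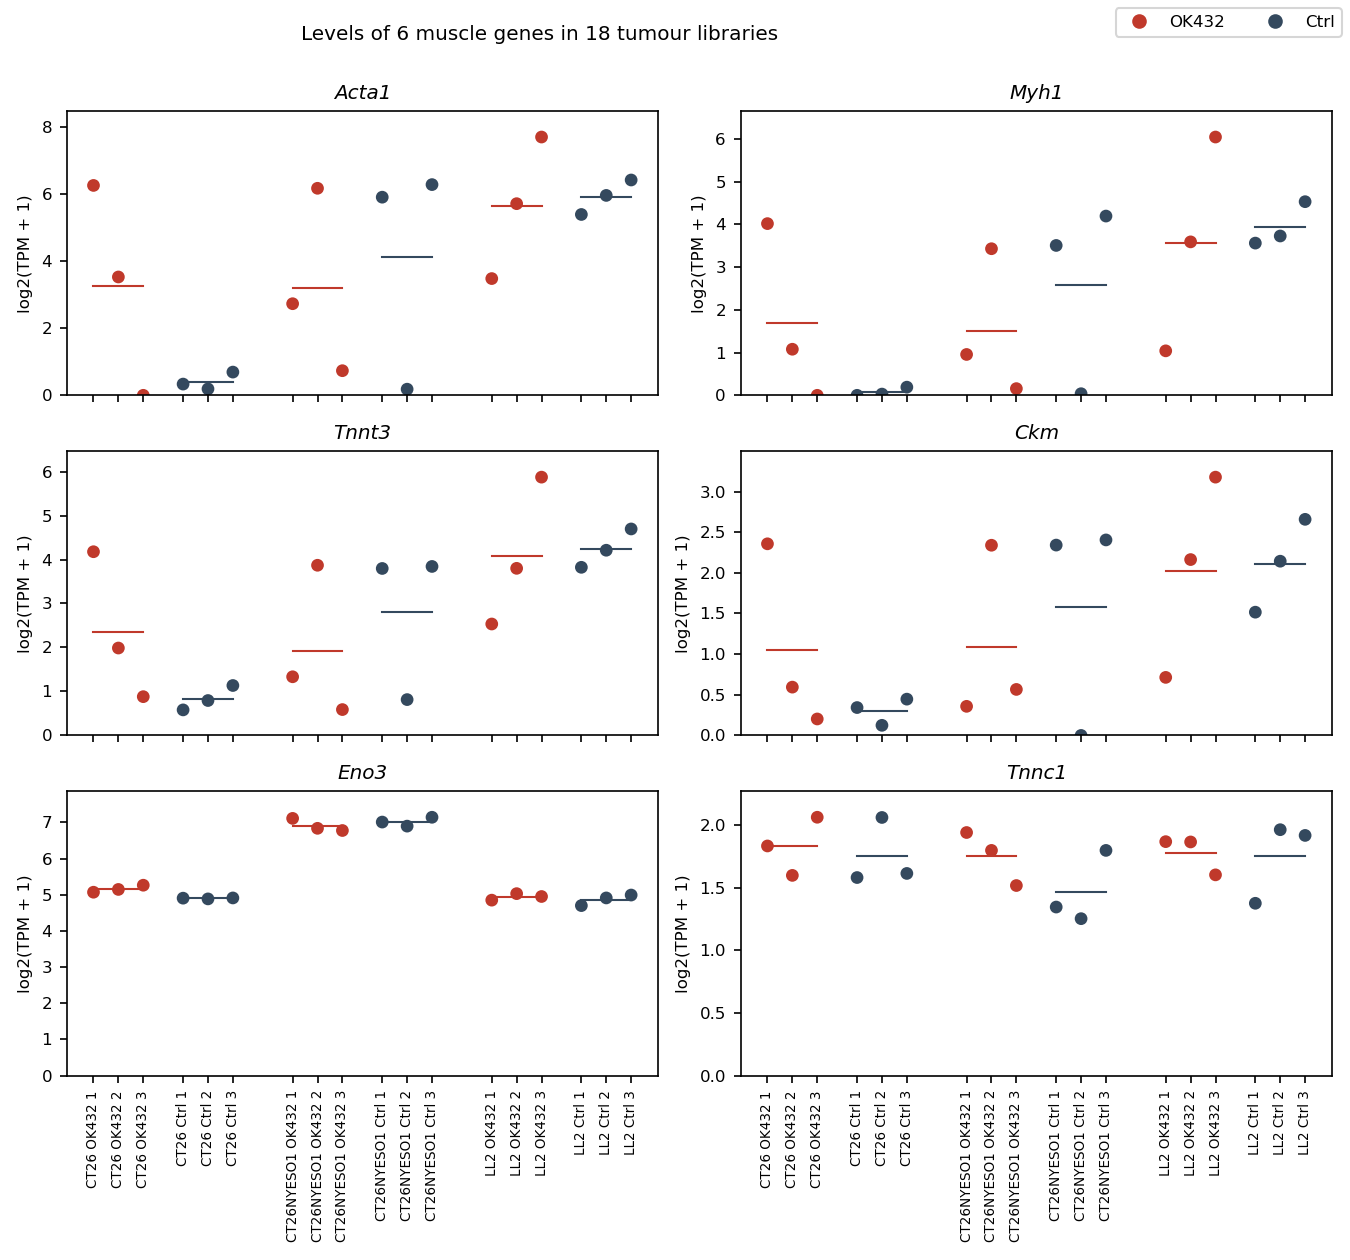
log2(TPM + 1) of Acta1, Myh1, Tnnt3, Ckm, Eno3 and Tnnc1 in the 18 libraries (red, OK432; dark blue, Ctrl; lines, group means). Acta1, Myh1, Tnnt3 and Ckm shared their high and low libraries, Eno3 was higher in all 6 CT26NYESO1 libraries, and Tnnc1 stayed between 1.38 and 3.18 TPM.

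Apart from Atp2a1, the genes of calcium handling stayed below 4 TPM. Atp2a1 (SERCA1, the calcium pump of fast fibres) stood at 6.49, 1.14 and 0.30 TPM in CT26 OK432 and at 0.25, 0.32 and 0.26 TPM in CT26 Ctrl. It stood at 0.27, 5.89 and 0.17 TPM in CT26NYESO1 OK432 and at 6.22, 0.18 and 6.35 TPM in Ctrl, and at 0.18, 2.53 and 15.9 TPM in LL2 OK432 and 2.53, 5.4 and 4.23 TPM in Ctrl. LL2 OK432 thus held both a low and the highest Atp2a1 library. Casq1 (calsequestrin), Ryr1 (the calcium release channel), Cacna1s (its voltage sensor), Pvalb (parvalbumin, a calcium buffer of fast fibres), Trdn (triadin) and Jph1 (junctophilin) ranged up to 3.62, 2.42, 1.45, 2.19, 1.61 and 0.39 TPM.

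The energy genes differed among themselves. Ckm, muscle creatine kinase, stood at 4.12, 0.51 and 0.15 TPM in CT26 OK432 and at 0.27, 0.09 and 0.36 TPM in CT26 Ctrl. It stood at 0.28, 4.06 and 0.48 TPM in CT26NYESO1 OK432 and at 4.07, 0 and 4.29 TPM in Ctrl, and at 0.64, 3.48 and 8.04 TPM in LL2 OK432 and 1.86, 3.42 and 5.31 TPM in Ctrl. The 4 libraries highest in Ckm were the 4 highest in Acta1, in the same order. Mb, myoglobin, peaked elsewhere, at 4.29 TPM in CT26 OK432 replicate 1, and was at most 1.52 TPM in LL2. Ckmt2, the mitochondrial creatine kinase, was listed at 0 in 10 libraries and reached at most 0.84 TPM. Ampd1, muscle AMP deaminase, stayed below 0.6 TPM.

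Eno3 and Cox6a2 differed more by tumour type than between libraries of a group. Eno3 stood at 32.6, 34.4 and 37.4 TPM in CT26 OK432 and at 29.0, 28.6 and 29.1 TPM in CT26 Ctrl. In CT26NYESO1 it stood at 137, 113 and 109 TPM with OK432 and at 128, 118 and 140 TPM in Ctrl. In LL2 it stood at 27.9, 31.7 and 29.9 TPM with OK432 and at 25, 29.1 and 30.8 TPM in Ctrl. Every CT26NYESO1 library was above 100 TPM and every other library below 38 TPM. Cox6a2, the muscle and heart form of a cytochrome c oxidase subunit, stood at 1.25, 0.92 and 0.75 TPM in CT26 OK432, 0.85, 0.86 and 0.78 TPM in CT26 Ctrl, 3.18, 4.02 and 1.90 TPM in CT26NYESO1 OK432 and 4.68, 2.43 and 3.81 TPM in CT26NYESO1 Ctrl. In LL2 Cox6a2 stood at 0.30, 0.77 and 2.22 TPM with OK432 and 0.88, 1.07 and 1.30 TPM in Ctrl. Pygm, muscle glycogen phosphorylase, ranged from 0.40 to 3.59 TPM over the series, with its maximum in LL2 OK432 replicate 3.

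The split of variance put these differences in order. The shares were not corrected for the number of libraries and groups, so each part takes some share even without any difference between groups. On log2(TPM + 1), the share of a gene's variance that lay between libraries of the same group had a median of 64.5% over the 34 genes and exceeded 50% in 29 of them. Over the 26 of the 34 that were tested, the median was 64.1%, against 10.1% for all 16816 tested genes, of which 9.53% exceeded 50%. For Acta1 the share within groups was 52.9%, with 36.5% between tumour types and 10.6% between OK432 and Ctrl within tumour types. For Myh1 these shares were 54.9%, 36.5% and 8.62%. Eno3 was the opposite, with 1.08% within groups and 98.1% between tumour types, and Cox6a2 had 23.9% and 74.7%. Pygm lay between, with 38.5% within groups, 44.6% between tumour types and 16.9% between OK432 and Ctrl. In LL2 OK432, 24 of the 26 tested genes spanned more than 1 on the log2 scale over the 3 libraries, against 2.49% of all tested genes. In CT26 Ctrl 1 of 26 did, against 2.24% of all tested genes.

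**Figure D3:**
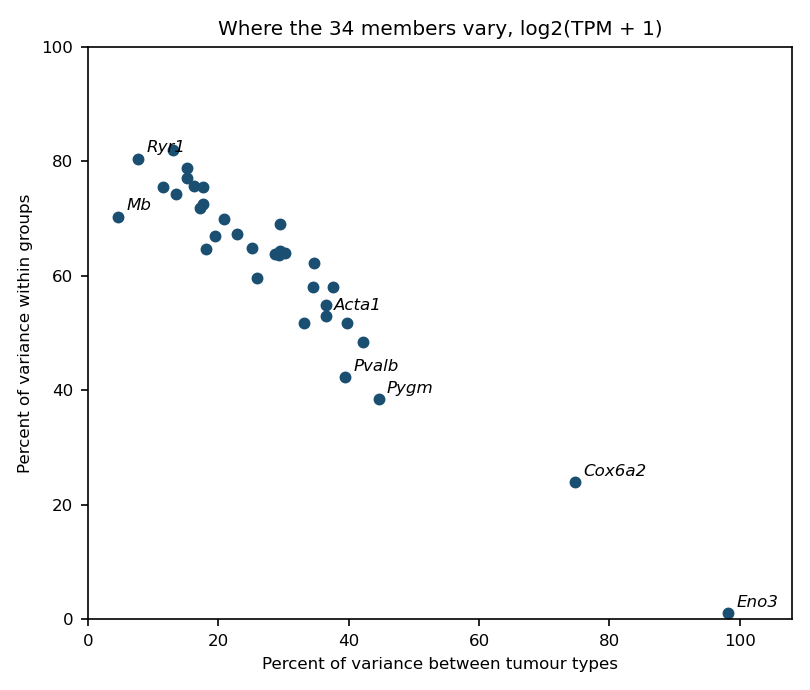
Percent of the variance of log2(TPM + 1) between tumour types (x axis) and between libraries of the same group (y axis) for each of the 34 genes. Most genes lie at the upper left, Eno3 lies at 98.1% between tumour types and 1.08% within groups, and Cox6a2 at 74.7% and 23.9%.

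In the libraries with at least 1 TPM of adult myosin heavy chain RNA, most of it was that of fast fibres, led by Myh1. Myh1 stood at 15.2, 1.11 and 0 TPM in CT26 OK432 and at 0, 0.0202 and 0.14 TPM in CT26 Ctrl. It stood at 0.94, 9.78 and 0.11 TPM in CT26NYESO1 OK432 and at 10.4, 0.0264 and 17.3 TPM in Ctrl, and at 1.06, 11.0 and 65.0 TPM in LL2 OK432 and 10.8, 12.3 and 22.1 TPM in Ctrl. Myh1 was the most abundant of the 4 adult heavy chain genes in each library in which they summed to at least 1 TPM. Myh2 stood at 6.73, 0.34 and 0 TPM in CT26 OK432 and at 0, 0 and 0.0226 TPM in CT26 Ctrl. It stood at 0.19, 2.77 and 0 TPM in CT26NYESO1 OK432 and at 1.77, 0 and 5.28 TPM in Ctrl, and at 0.11, 3.14 and 8.23 TPM in LL2 OK432 and 0.95, 0.73 and 4.07 TPM in Ctrl. Myh4 was listed at 0 in 7 libraries. It stood at 0.20, 0.22 and 0 TPM in CT26 OK432 and was listed at 0 in all of CT26 Ctrl, at 0, 1.58 and 0.19 TPM in CT26NYESO1 OK432 and 0.39, 0 and 0.45 TPM in Ctrl, and at 0.00922, 0 and 0.87 TPM in LL2 OK432 and 0.0574, 0.29 and 0.0354 TPM in Ctrl. Myh7, the slow heavy chain, stood at 0.11, 0.26 and 0.20 TPM in CT26 OK432, 0.16, 0.24 and 0.21 TPM in CT26 Ctrl, 0.0257, 0 and 0.0463 TPM in CT26NYESO1 OK432 and 0.0398, 0.0498 and 0.0217 TPM in CT26NYESO1 Ctrl. In LL2 Myh7 stood at 0, 0 and 0.00794 TPM with OK432 and 0.0484, 0.0335 and 0 TPM in Ctrl. Myh7 was highest in CT26, in libraries with little Acta1 as well as in the one with much. It was above Myh1 in 5 libraries, which were CT26 OK432 replicate 3, all 3 of CT26 Ctrl and CT26NYESO1 Ctrl replicate 2, each with under 1 TPM of both.

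As shares of the summed TPM of these 4 genes, which corrects for length, Myh1 took a median of 81.9% (range 57.6% to 92.1%) over the 12 libraries with a sum of at least 1 TPM. Myh2 took a median of 16.0% (5.52% to 30.3%), Myh4 1.05% (0% to 11.2%) and Myh7 0.173% (0% to 13.3%). The lowest Myh1 share and the highest Myh7 share both came from CT26 OK432 replicate 2, in which the 4 genes summed to 1.93 TPM. In LL2 the Myh1 share was 90%, 77.9% and 87.7% with OK432 and 91.1%, 92.1% and 84.3% in Ctrl. In CT26NYESO1 it was 81.3% and 69.2% in OK432 replicates 1 and 2 and 82.5% and 75.1% in Ctrl replicates 1 and 3. The order Myh1, Myh2, Myh4 held in each of these 12 libraries. These genes lie side by side on chromosome 11, apart from Myh7, and are near-identical in stretches, so their reads may have been shared between them and the shares are uncertain. With the developmental chains Myh3 and Myh8 added, 13 libraries reached the minimum. The share of Myh1 then had a median of 77.5% and a range of 11.3% to 91.3%, and that of Myh3 a median of 0.676% and a maximum of 69.9%, in CT26 Ctrl replicate 3. Myh3 was above every adult heavy chain in 4 libraries, CT26 OK432 replicate 3 and all 3 of CT26 Ctrl.

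**Figure D4:**
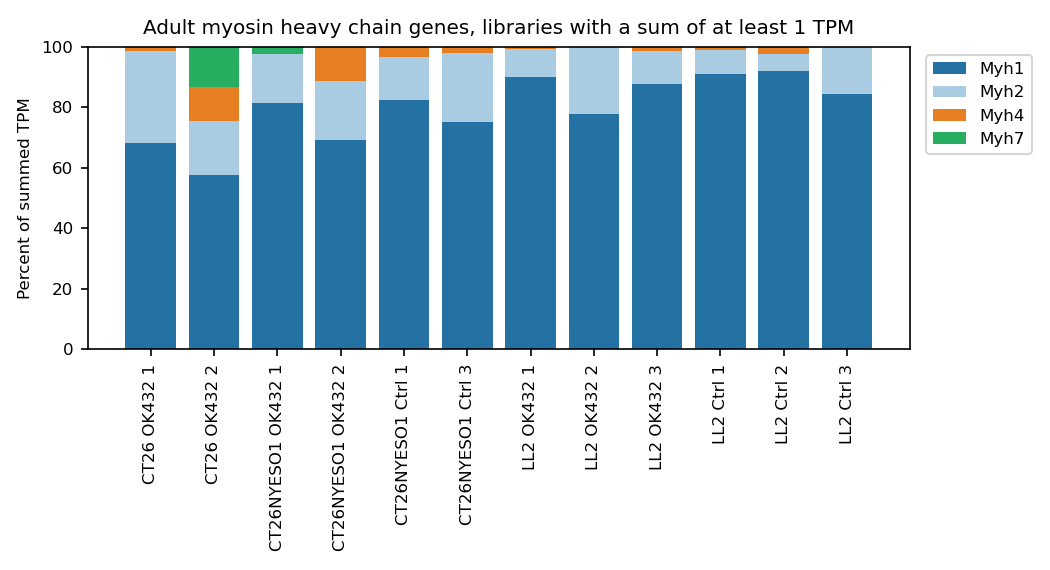
Percent of the summed TPM of the adult myosin heavy chain genes taken by Myh1, Myh2, Myh4 and Myh7 in the 12 libraries where they summed to at least 1 TPM, OK432 left of Ctrl within each tumour type. Myh1 took between 57.6% and 92.1%, and no CT26 Ctrl library reached the minimum.

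Some of the genes kept a narrow proportion to Acta1 and others did not. In the 12 libraries with at least 1 TPM of Acta1, where Acta1 itself ranged from 5.65 to 208 TPM, the percent of Acta1 by TPM was computed for the 33 other genes. Its highest value was under 4 times its lowest for 12 of the 33, which were Actn2, Myh1, Myl1, Mylpf, Tnnt3, Ckm, Ttn, Neb, Casq1, Tcap, Xirp2 and Smpx. The ratio was 4 to under 10 for 8 (Actn3, Myh2, Tnni2, Tnnc2, Ryr1, Atp2a1, Mybpc2 and Ampd1) and 10 or more for 6 (Tnnc1, Cacna1s, Myoz1, Eno3, Pygm and Cox6a2), and the lowest value was 0 for the other 7. These limits were set after the values were seen. Ckm was the narrowest, at 5.56% of Acta1 in the median with a range of 3.86% to 6.86%. Myh1 had a median of 20.0% (10.4% to 31.2%) and Tnni2 one of 12.1% (9.19% to 70.4%). Eno3 was the widest, from 14.4% to 2430%.

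No muscle gene passed the test for a difference between OK432 and Ctrl in any tumour type. Of the 34 genes, 26 passed the filter on low values (at least 1 TPM in at least 3 libraries) and were tested with limma on log2(TPM + 1). The other 8 were Myh4, Ckmt2, Ttn, Cacna1s, Myot, Trdn, Jph1 and Ampd1, and an unfiltered fit over all 34 called none of them with OK432 either. Calls needed an adjusted p (Benjamini-Hochberg, over the 16816 genes tested) below 0.05. All log2 differences below are of log2(TPM + 1), which understates changes of low genes.

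In CT26, 0 of the 26 were called and 2 (Eno3 and Pygm) passed 0.05 before adjustment, where 0% of the 16816 genes were called. Before adjustment, 689 of the 16816 passed 0.05. The median difference of the 26 was 0.73, OK432 minus Ctrl, against 0.000367 for all tested genes, and all 26 differences were above 0. Acta1 differed by 2.86 ± 1.91 (SE; adjusted p = 1 in limma), Myh1 by 1.63 ± 1.38, Ckm by 0.75 ± 0.80 and Eno3 by 0.26 ± 0.09. Without OK432 replicate 1 the difference of Acta1 was 1.36 and that of Myh1 0.47. Groups did not overlap for 3 of the 26, Tnni2, Eno3 and Pygm, each higher with OK432, where 4.79% of all tested genes lay apart in that direction and 5.1% in the other.

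In CT26NYESO1 the differences ran the other way without passing the test. Of the 26, 0 were called and 0 reached 0.05 before adjustment, where 0.666% of all tested genes were called, 0.41% higher and 0.256% lower. The median was -0.48, against -0.02 for all tested genes, with 25 differences below 0 and Tnnc1, at 0.29 ± 0.20 (SE), above it. Acta1 differed by -0.91 ± 1.91 (adjusted p = 0.881 in limma) and Myh1 by -1.07 ± 1.38. Leaving out OK432 replicate 3 turned the Acta1 difference to 0.33, and leaving out Ctrl replicate 2 took it to -2.89. Treated and untreated libraries overlapped for all 34 genes, where 7.14% of all tested genes lay apart upward and 9.84% downward.

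In LL2 the 26 genes split evenly, 13 above and 13 below 0, with a median of -0.00247 against -0.00992 for all tested genes. Of the 26, 0 were called and 0 reached 0.05 before adjustment, where 0.0178% of all tested genes were called, 0.0119% higher and 0.00595% lower. Acta1 differed by -0.29 ± 1.91 (SE; adjusted p = 1 in limma), Myh1 by -0.38 ± 1.38 and Ckm by -0.09 ± 0.80. The balance rested on single libraries: without OK432 replicate 3, 24 of the 26 were below 0, and without OK432 replicate 1, 23 were above 0. Ckmt2, listed at 0 in all 3 OK432 libraries and at 0.0511, 0.0775 and 0.14 TPM in Ctrl, was the only gene of the 34 whose groups lay apart in LL2, and it was too low to test (named after its values were seen). Of all tested genes, 5.17% lay apart in that direction and 4.7% in the other.

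Averaged over the 3 tumour types, 0 of the 26 were called and 0 reached 0.05 before adjustment, where 0.172% of all tested genes were called, 0.167% higher and 0.00595% lower. The median difference was 0.07, against -0.01 for all tested genes, and the smallest adjusted p of the 26 was 0.671, for Eno3. Acta1 averaged 0.55 ± 1.1 (SE) and Myh1 0.06 ± 0.80. The effects themselves were also compared between tumour types. For CT26 minus CT26NYESO1, 0 of the 26 were called, 2 reached 0.05 before adjustment and 0% of all tested genes were called, with a median of 1.23. For CT26 minus LL2, 0 were called and 1 reached 0.05 before adjustment, where 0.00595% of all tested genes were called. For CT26NYESO1 minus LL2, 0 were called and 0 reached 0.05 before adjustment, where 0.00595% of all tested genes were called. The standard errors of Acta1 and Myh1 were above 1 within each tumour type, so changes of that size could not have been detected, and the absence of calls does not show that treated and untreated tumours held the same amount of muscle RNA.

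**Figure D5:**
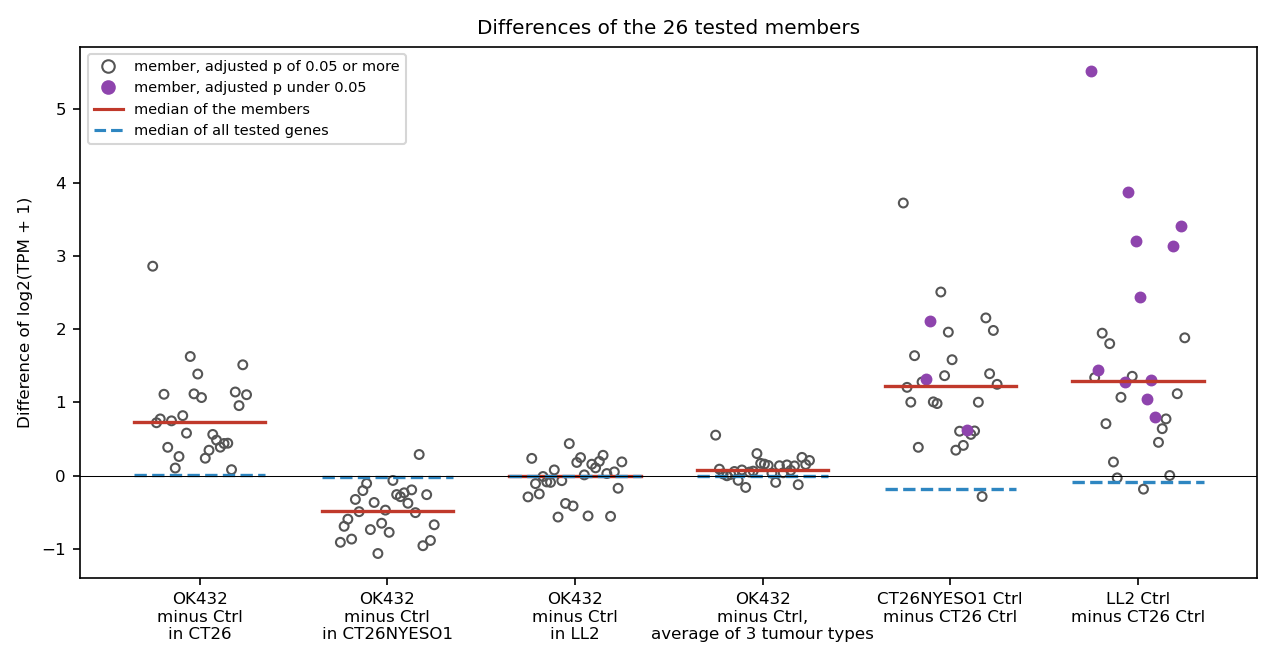
Difference of log2(TPM + 1) for each of the 26 tested muscle genes in 6 comparisons (filled circles, adjusted p under 0.05 in limma; red lines, median of the 26; dashed blue lines, median of all 16816 tested genes). With OK432 the medians were 0.73 in CT26, -0.48 in CT26NYESO1 and -0.00247 in LL2 with no gene called, and the called genes lie in the comparisons between untreated tumours.

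Some muscle genes were called between untreated tumours of different types. In each comparison the share called in either direction was smaller than that of all tested genes. In CT26NYESO1 Ctrl against CT26 Ctrl, 3 of the 26 (11.5%) were higher and 0 lower, and 4 had an unadjusted p under 0.05. Over all tested genes 64.9% were called, 21.1% higher and 43.9% lower. The median of all tested genes was -0.18 in this comparison and 0 after median-of-ratios rescaling, under which 4 of the 26 were higher and the split over all tested genes was 5128 higher and 5268 lower, in place of 3546 and 7375. Eno3 was higher by 2.12 ± 0.09 (SE; adjusted p = 4.61e-12 in limma) and Cox6a2 by 1.31 ± 0.27 (adjusted p = 0.000425 in limma), higher in 3 of 3 CT26NYESO1 Ctrl libraries than in any CT26 Ctrl library. Pygm was higher by 0.63 ± 0.22 (adjusted p = 0.022 in limma), at 1.42, 1.13 and 1.54 TPM in CT26NYESO1 Ctrl and 0.62, 0.57 and 0.40 TPM in CT26 Ctrl. Pygm missed the threshold without CT26 Ctrl replicate 3 (adjusted p = 0.0679 in limma) or without CT26NYESO1 Ctrl replicate 1 (0.0533) or 3 (0.0668). None of the 3 is a sarcomere gene. Acta1 differed by 3.72 ± 1.91 (adjusted p = 0.105 in limma), with 1 of the 3 CT26NYESO1 Ctrl libraries as low as CT26 Ctrl. Without that library, replicate 2, 12 of the 26 were higher, and without LL2 OK432 replicate 3 in the shared fit 6 were.

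In LL2 Ctrl against CT26 Ctrl, 11 of the 26 (42.3%) were higher and 0 lower, and 12 had an unadjusted p under 0.05. Over all tested genes 68.8% were called, 29.1% higher and 39.7% lower. The 11 were Acta1, Myh1, Tnnt3, Myl1, Tnnc2, Mylpf, Actn3, Pvalb, Mybpc2, Neb and Pygm, most of them genes of the fast fibre sarcomere. Acta1 was higher by 5.52 ± 1.91 (SE; adjusted p = 0.0206 in limma), with 41.2, 61.5 and 85.0 TPM in LL2 Ctrl and 0.26, 0.14 and 0.62 TPM in CT26 Ctrl. Myh1 was higher by 3.87 ± 1.38 (adjusted p = 0.0236 in limma) and Tnnt3 by 3.41 ± 1.1 (adjusted p = 0.014 in limma), each higher in 3 of 3 LL2 Ctrl libraries than in any CT26 Ctrl library. Without LL2 Ctrl replicate 3, Acta1 (adjusted p = 0.0539 in limma) and Myh1 (0.0649) missed the threshold, as did Myh1 without CT26 Ctrl replicate 1 (0.0511) or 2 (0.0512). Eno3, by -0.03 ± 0.09, and Tnnc1, by 0.00 ± 0.20, did not pass the test. The count was 5, 5 and 7 without CT26 Ctrl replicate 1, 2 or 3, and 6 and 4 without LL2 Ctrl replicate 2 or 3. It was 22 when the 6 libraries were fitted alone. Tumour type was also the line and, by the origin of the lines, the mouse strain, and these cannot be told apart. Both comparisons used the same CT26 Ctrl libraries.

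Many but not all genes of muscle outside the 34 had their peaks in the same libraries. Of 45 further adult muscle genes, 24 were highest of all 18 libraries in LL2 OK432 replicate 3, against 6.41% of all tested genes. Within CT26, 29 of the 45 were highest in OK432 replicate 1, against 16.1% of all tested genes. Within CT26NYESO1, 21 were highest in Ctrl replicate 3 and 10 in Ctrl replicate 1, against 13.5% and 20.6% of all tested genes. Des, the intermediate filament desmin, stood at 19.6, 6.00 and 2.28 TPM in CT26 OK432 and 3.15, 1.95 and 2.52 TPM in CT26 Ctrl, at 5.47, 17.9 and 2.97 TPM in CT26NYESO1 OK432 and 17.7, 2.77 and 33.7 TPM in Ctrl, and at 2.99, 7.16 and 40.2 TPM in LL2 OK432 and 8.49, 10.3 and 11.8 TPM in Ctrl. The 3 most abundant of the 45, Tpm2, Fhl3 and Pfkm, averaged 87.9, 51.5 and 39.2 TPM over the series and are used in many cells besides muscle. Of the 45, 26 were tested, and 0 were called in any OK432 comparison. Between untreated tumours they ran both ways, with 6 higher and 6 lower in CT26NYESO1 Ctrl than in CT26 Ctrl, and 8 higher and 4 lower in LL2 Ctrl than in CT26 Ctrl. Over all tested genes, 21.1% were higher and 43.9% lower in the CT26NYESO1 comparison, and 29.1% and 39.7% in the LL2 comparison. Of 11 further slow fibre genes 6 were tested, with 0 called for OK432. The abundant Tpm3, Atp2a2 and Mybpc1 averaged 371, 172 and 2.24 TPM, and Mybpc1 reached 13.0 TPM in LL2 OK432 replicate 3. The 11 genes summed to 429 TPM in CT26 OK432 replicate 3, where Acta1 was listed at 0. In CT26 OK432 replicate 1, with 75.9 TPM of Acta1, they summed to 473 TPM, so their sum does not measure slow fibre RNA. Markers of muscle stem cells and regeneration were low. Pax7, Myf5 and Mymx stayed below 0.1 TPM, and Myog, which drives myoblast differentiation, reached 1.91 TPM in CT26 OK432 replicate 1 and was listed at 0 in all CT26 Ctrl libraries. Ncam1, Chrna1 and Myog averaged 2.08, 0.905 and 0.412 TPM, the most abundant of these 13 genes.

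Other tissues of the skin layer and other muscles were looked at in the same libraries. Heart markers gave Myl7 at 0 in all 18 libraries and Ryr2 below 0.04 TPM, while Tnnt2, Nppb and Tnni3 averaged 9.62, 5.93 and 2.7 TPM and stood at 1.46, 0.77 and 3.27 TPM in LL2 OK432 replicate 3. Of the 11 heart genes 4 were tested. Smooth muscle and pericyte genes, led by Smtn, Rgs5 and Acta2 at 79.9, 23.2 and 21.1 TPM, summed to 189 to 218 TPM in CT26 OK432, 183 to 228 in CT26 Ctrl, 103 to 125 in CT26NYESO1 OK432, 97.2 to 110 in CT26NYESO1 Ctrl, 118 to 175 in LL2 OK432 and 121 to 147 in LL2 Ctrl, with the LL2 maximum in OK432 replicate 3. Of the 11, 9 were tested. Fat cell genes, led by Fabp4, Lipe and Lpl at 244, 11.1 and 4.73 TPM, summed to 691 to 784 TPM in CT26 OK432, 657 to 666 in CT26 Ctrl, 66.8 to 87.9 in CT26NYESO1 OK432, 68.7 to 84.2 in CT26NYESO1 Ctrl, 19.3 to 77.3 in LL2 OK432 and 24.8 to 31.1 in LL2 Ctrl. Of these 15 genes 6 were tested. Adipoq, specific to fat cells, was at most 1.06 TPM, in LL2 OK432 replicate 3, the library richest in muscle. The sums, led by Fabp4, were largest in CT26, whereas Adipoq peaked in LL2. Within LL2 the fat cell sum was highest in OK432 replicate 3, at 77.3 TPM, and within CT26 in OK432 replicate 1, at 784 TPM. Both were the libraries richest in muscle of their tumour type. Within CT26NYESO1 the sum was highest in OK432 replicate 2, at 87.9 TPM. It stood at 70.7 TPM in Ctrl replicate 3, the richest in muscle there. Car3, which fat and skeletal muscle both use, stood at 0.34, 1.99 and 27.5 TPM in LL2 OK432 and 2.55, 4.67 and 6.12 TPM in LL2 Ctrl.

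Epidermal genes, led by Lgals7, Sbsn and Krt10 at 24, 3.3 and 1.2 TPM, held Krt77 and Flg2 at 0 in all libraries, and Krt5 and Krt14 reached 1.11 and 0.773 TPM. The highest Krt5 value lay in CT26NYESO1 Ctrl replicate 3, a library high in Acta1, where Krt14 was at 0.63 TPM. The highest Krt14 value lay in LL2 OK432 replicate 2, and both genes were listed at 0 in LL2 OK432 replicate 3. Of these 16 genes 5 were tested. Of 10 hair follicle and sebaceous genes 3 were tested, Krt27, Krt71 and Krt35 were listed at 0 throughout, and Scd1, Mgst1 and Awat2 led at 133, 12.2 and 0.991 TPM. Nerve genes, of which 7 of 12 were tested, were led by Pmp22, Cnp and Mbp at 33.8, 19.6 and 12 TPM. Of the tested genes of these 6 lists, 0 were called in any OK432 comparison, and the part that tissue around the tumour or the muscle of the skin played in the muscle values was not tested.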

How the data were processed

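Bulk RNA from 18 tumour libraries was measured, per the labels' protocols after TRIzol extraction and a stranded mRNA kit, and the authors deposited 1 table of TPM values for 55291 genes. STAR 2.7.3a, StringTie 2.1.2, Trim Galore 0.6.5 and the mm10 build are listed by the submitters' processing notes. No source used here gives the annotation, the strand setting or any filter. Because TPM values hold no read number, the depth is unknown, no counting interval or detection limit can be given, and deeper libraries could not be given more weight. Each library summed to 1000000.

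The 34 genes and the other lists were chosen with earlier results of these data known. Values were taken as log2(TPM + 1). Genes with at least 1 TPM in at least 3 libraries, 16816 in all, were fitted with limma 3.58.1 in R 4.3.3 as 6 group means with trended, robust empirical Bayes and Benjamini-Hochberg adjustment, and the fit was tested on simulated data. Group sums, myosin shares and variance shares have no test. Values in every library are given for the 10 genes with the highest mean, the adult myosins, Tnnc1 and the 3 largest called changes between controls. Ckm, Des, Car3, Myog and other single genes were added after their values were seen. From each other list the 3 most abundant genes are named. Alternatives covered the pseudocount (0.1), the filter, 2 rescalings, the libraries fitted, the empirical Bayes step, a replicate block and leaving out each library.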

Additional observations from a re-analysis of the deposited data

How the results depend on the processing

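The absence of called muscle genes with OK432 held in each tumour type, on average and between tumour types: 0 of the tested genes were called under every alternative run and with each of the 18 libraries left out (fitting only the libraries compared was not run for the average). The count of muscle genes higher in CT26NYESO1 Ctrl than in CT26 Ctrl, 3, was 6 with a pseudocount of 0.1, 6 with only the libraries compared in the fit, and 2 to 12 with a library left out. The count higher in LL2 Ctrl than in CT26 Ctrl, 11, was 22 with only the libraries compared and 4 to 14 with a library left out. The OK432 mean over the Ctrl mean of the summed TPM was 2.95 in CT26, 6.51 without Eno3 (chosen after seeing the data) and 1.44 to 3.82 with a library left out, lowest without OK432 replicate 1. In LL2 it was 1.36, 0.597 to 1.89 with a library left out (lowest without OK432 replicate 3), and 0.848 from the mean log2 value, which puts OK432 below Ctrl. In CT26NYESO1 it was 0.759 and 0.564 to 0.916.

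Leaving out 1 library turned the sign of uncalled differences. The ranges for Acta1 were -2.89 to 0.33 in CT26NYESO1, -1.33 to 0.78 in LL2 and -0.11 to 1.1 on average. For Myh1 they were -1.62 to 0.88 in LL2 and -0.36 to 0.48 on average, for Ckm -0.67 to 0.56 in LL2 and -0.21 to 0.27 on average, for Eno3 -0.00785 to 0.14 in LL2, and for Tnnc1 -0.0361 to 0.23 in CT26 and -0.16 to 0.13 in LL2. Pygm in CT26NYESO1 Ctrl against CT26 Ctrl missed the threshold without the filter (adjusted p = 0.0514 in limma).

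Same-numbered OK432 and Ctrl libraries had deviations correlated at -0.12 to 0.22, against -0.19 to 0.26 for differently numbered ones. With 3 libraries per group these values do not settle whether the libraries were paired. With the replicate block, 3 and 9 muscle genes were higher in the control comparisons of CT26NYESO1 and LL2 and 0 were called with OK432. Over all tested genes the calls with OK432 were 0, 112, 3 and 29 for CT26, CT26NYESO1, LL2 and the average, and 0, 43, 23 and 98 with the block. They ranged over all alternatives, the block included, from 0 to 22, 0 to 120, 1 to 23 and 28 to 98, and with a library left out from 0 to 8, 4 to 673, 1 to 15 and 20 to 141. The 3 differences between effects gave 0, 1 and 1 calls, up to 6, 16 and 11 without the filter and up to 99, 2 and 57 with a library left out. The cause of these changes was not tested. Quantile normalization gave 5381 genes higher and 5011 lower in CT26NYESO1 Ctrl than in CT26 Ctrl. In LL2 Ctrl against CT26 Ctrl the split was 4886 and 6682 as deposited, 5771 and 5844 after median-of-ratios rescaling and 6510 and 5261 after quantile normalization. The unknown depth limits every value under 1 TPM, which covers most of the 34 genes in the CT26 controls.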

Other observations

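Neutrophil genes were looked at beside the muscle genes because OK-432 is a bacterial preparation and neutrophils are among the first cells to enter such a site. Like the other lists, this one was chosen with earlier results of these data known. The 12 neutrophil genes, led by S100a9, S100a8 and Clec4d at 78.7, 34.4 and 30.2 TPM, summed to 240, 140 and 216 TPM in CT26 OK432 and 54.6, 66.8 and 57.9 TPM in CT26 Ctrl. They summed to 878, 156 and 644 TPM in CT26NYESO1 OK432 and 62.5, 55.1 and 82.5 TPM in CT26NYESO1 Ctrl. In LL2 they summed to 201, 203 and 343 TPM with OK432 and 64.3, 79.0 and 64.7 TPM in Ctrl. The groups did not overlap in any tumour type, unlike the muscle sums without Eno3. With Eno3 included, the muscle sums did not overlap in CT26 either. All 11 tested neutrophil genes had differences above 0 in each tumour type. Their medians were 0.78 in CT26, 1.68 in CT26NYESO1 and 0.86 in LL2. Of the 11, 5 were called higher in CT26NYESO1, where 0.41% of all tested genes were, and 4 on average, where 0.167% were. In CT26 and in LL2, 0 of the 11 were called, where 0% and 0.0178% of all tested genes were. The 5 calls in CT26NYESO1 became 0 with only the libraries compared in the fit, 2 without the filter and 3 without the trend and robust steps. With 1 library left out they ranged from 1, without OK432 replicate 3 or Ctrl replicate 2, to 10, without OK432 replicate 2. The 4 calls on average ranged from 2 to 10 with 1 library left out. S100a9, a subunit of the calcium-binding protein calprotectin, was higher by 6.04 ± 0.63 (SE; adjusted p = 0.00434 in limma) in CT26NYESO1 and by 4.02 ± 0.37 (adjusted p = 0.000489 in limma) on average. S100a8, its partner, was higher by 4.62 in CT26NYESO1 and 3.39 on average. Il1r2, Csf3r and Trem1 were higher by 1.98, 1.22 and 1.19 in CT26NYESO1 and Retnlg by 1.69 on average.

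The libraries did not share one order of neutrophil and muscle RNA. In CT26NYESO1 OK432 the library highest in muscle, replicate 2 with 186 TPM, was the lowest in neutrophil genes with 156 TPM. In LL2 OK432 replicate 3 was highest in both, with 570 TPM of muscle and 343 TPM of neutrophil genes. In CT26 OK432 replicate 1 was highest in both, with 225 and 240 TPM, while replicate 3 had 14.9 TPM of muscle and 216 TPM of neutrophil genes. Whether the share of a sample taken up by muscle moved its neutrophil values was not tested. The 13 genes encoded in the mitochondrial genome, which muscle also uses heavily, summed to 40121 to 44414 TPM in CT26 OK432 and 39690 to 42766 TPM in CT26 Ctrl, to 55046 to 58720 TPM in CT26NYESO1 OK432 and 56223 to 62803 TPM in CT26NYESO1 Ctrl, and to 67568 to 71184 TPM in LL2 OK432 and 68520 to 69669 TPM in LL2 Ctrl. None of the 13 was called with OK432.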
